A study of Homo sapiens with 8 samples.

Results

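The genes described here are 10 members of the YAP and TEAD branch of the Hippo pathway, taken by name: the coactivators YAP1 and WWTR1, the DNA-binding partners TEAD1, TEAD2, TEAD3 and TEAD4, and the target genes CCN1, CCN2, ANKRD1 and AMOTL2. All 10 were found among the 34290 genes with a count and all 10 entered the test of 19280 genes. They were measured by RNA sequencing in HEK293T, a human embryonic kidney line used widely for transfection. In 4 libraries the cells overexpressed human KCNQ3, a potassium channel subunit, from a tagged construct transfected with FuGene HD and were harvested 48 h later, and 4 libraries came from normal HEK293T cells. The labels repeat one transfection text for every sample, so it remains unknown here if control cells were mock transfected, and the density of the cultures at harvest is also not known. The series names the 4 libraries of a group biological replicates without stating that the cultures were separate, so p-values measure the spread between these libraries, which may be technical.

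The Hippo pathway is a kinase cascade that senses cell contact, polarity and tension on the actin cytoskeleton. When the cascade is active, LATS kinases phosphorylate YAP and TAZ (the product of WWTR1), which are then held in the cytoplasm or degraded; when it is inactive, both enter the nucleus, bind TEAD proteins and switch on genes such as CCN1 and CCN2. Most of this control acts on protein phosphorylation and location, which RNA levels do not measure, and the RNA of target genes is the common indirect readout, including of how crowded a culture is. HEK293 cells are known to inactivate YAP when grown dense.

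KCNQ3 had 15283, 15874, 19709 and 18603 counts in the overexpression libraries, against 4, 5, 0 and 2 counts in the control libraries, which checks the labels. The libraries held 24020097 to 30734915 counts, of which genes of the mitochondrial genome took 4.82% to 5.84% in overexpression libraries and 3.99% to 5.59% in control libraries. Over all genes, 58 of 19280 passed the threshold (Benjamini-Hochberg adjusted p below 0.05 in edgeR's quasi-likelihood test), 0.109% as higher and 0.192% as lower. All 9 markers listed for the HEK293 line were expressed at a mean of 1.69 TPM or more, with a summed level of 719 to 837 TPM in overexpression libraries and 749 to 960 TPM in control libraries. Of 8 fibroblast markers, COL1A2, DCN and THY1 were at 0 in every library. The summed level was 4.30 to 6.65 TPM in overexpression libraries and 5.94 to 7.68 TPM in control libraries. Most of it was COL1A1, at a mean of 5.16 TPM over all libraries. COL3A1, LUM, PDGFRA and PDGFRB averaged 0.436, 0.214, 0.349 and 0.052 TPM. Of 6 blood markers, PTPRC, CD3E and HBB were at 0 in every library. LYZ was at 0 in every library except control replicate 3 (0.041 TPM). CD14 was 0.124 to 0.247 TPM in overexpression libraries and 0.201 to 0.326 TPM in control libraries.

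None of the 10 genes passed the threshold in cells overexpressing KCNQ3, where 0.301% of all tested genes did. AMOTL2 was the 1 member with an unadjusted p below 0.05 in edgeR's test, where 3737 of all 19280 genes had one. Log2 fold changes (overexpression over control, on counts) were below 0 for 7 members and above 0 for 3, against 47.4% of all genes below 0. Their median was -0.04 and that of all genes was 0.0090. No member had groups without overlap in CPM (TMM-scaled counts per 1000000), which 11.6% of all genes had. In bulk RNA, fewer cells expressing a gene and less RNA per cell cannot be told apart.

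**Figure D1:**
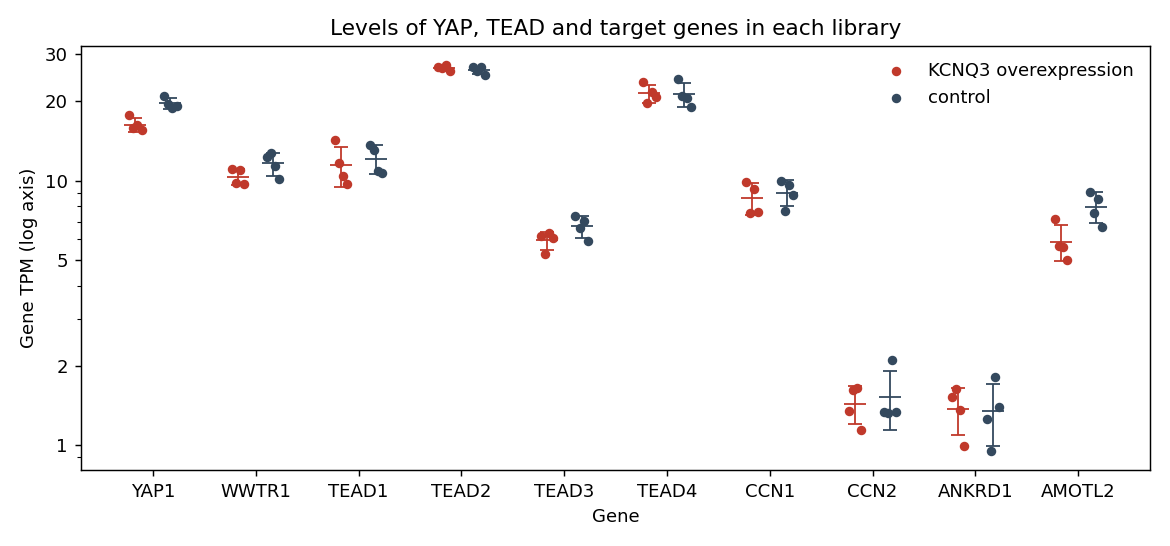
Gene TPM (length-scaled level, log axis) of the 10 genes in 4 KCNQ3 overexpression libraries (red, left of each pair) and 4 control libraries (dark, right); points are libraries, the cross-bar is the mean and the whiskers are the SD. TEAD2 and TEAD4 are highest and CCN2 and ANKRD1 lowest in both groups, and YAP1 is the 1 gene whose groups do not overlap on this scale.

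On the TPM scale, which allows genes to be compared per length, the levels spread over more than an order of magnitude and kept nearly the same order in both groups. Averaged over all 8 libraries, the order was TEAD2, TEAD4, YAP1, TEAD1, WWTR1, CCN1, AMOTL2, TEAD3, CCN2 and ANKRD1. TEAD2 exceeded TEAD4 in all 8 libraries, YAP1 exceeded TEAD1 in all 8, and TEAD3 exceeded CCN2 in all 8, in each case without overlap of the ranges in either group. The order of TEAD1 and WWTR1 held in 5 libraries, that of CCN2 and ANKRD1 in 5 and that of AMOTL2 and TEAD3 in 6, and these neighbours overlapped in both groups. Among the 34290 genes with a count, ranked by mean TPM, TEAD2 stood at 5575, YAP1 at 7338, CCN1 at 10421, CCN2 at 16174 and ANKRD1 at 16398.

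The coactivators come first. YAP1 (ENSG00000137693, chromosome 11, 102110461 to 102233423, plus strand, GRCh38) had 1507, 1310, 1466 and 1280 counts in overexpression libraries, against 1814, 1557, 1332 and 1346 counts in control libraries. In TMM-scaled units this was 54.6 ± 1.45 CPM in overexpression libraries and 56.7 ± 2.62 CPM in control libraries (SD, n = 4 each), and the groups overlapped. YAP1 changed by -0.05 on the log2 scale (SE 0.04, adjusted p = 0.532 in edgeR's quasi-likelihood test).

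WWTR1 (ENSG00000018408, chromosome 3, 149517235 to 149736714, minus strand) encodes TAZ, the paralog of YAP. It had 738, 618, 774 and 681 counts in overexpression libraries, against 899, 841, 705 and 683 counts in control libraries, with overlapping groups. The log2 fold change was -0.09 (SE 0.06, adjusted p = 0.427 in edgeR's test). An antisense gene, WWTR1-AS1, shares 795 exon bases with it and had at most 7 counts in any library; without strand, reads of the pair cannot be told apart.

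YAP1 made up 61.1% ± 0.979 of the summed TPM of YAP1 and WWTR1 in overexpression libraries and 62.9% ± 2.04 in control libraries (SD, n = 4 each). The difference of -1.74 percentage points had a two-sided exact permutation p of 0.200 over 70 assignments (0.400 after adjustment over the 2 shares tested), where the smallest p the design allows is 0.0286. On counts in place of TPM the difference was 0.57 percentage points, in the opposite direction.

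The TPM and count scales differed for YAP1 itself. Its TPM was 17.7, 15.8, 16.2 and 15.5 in overexpression libraries, against 20.8, 19.5, 18.9 and 19.2 in control libraries. Every overexpression library was below every control library on this scale, as for 4.01% of the 19459 genes with a mean of at least 0.5 TPM (6.73% were apart in either direction). On log2(TPM + 0.1), limma gave a difference of -0.27 (SE 0.06) with an adjusted p of 0.260, so YAP1 did not pass on either scale. The 4 annotated YAP1 transcripts over 5000 bases long summed to 15.9 ± 1.04 TPM in overexpression libraries and 16.2 ± 1.75 TPM in control libraries. The other 7 transcripts summed to 0.244, 0.621, 0.382 and 0.249 TPM in overexpression libraries, against 3.19, 2.28, 2.75 and 5.40 TPM in control libraries. The gap between the groups in YAP1 TPM was thus carried by the shorter transcripts, which held 38 counts in all overexpression libraries together and 368 counts in all control libraries.

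YAP1 RNA is spliced into forms that differ by an internal exon of 48 bases (chr11:102209517-102209564, GRCh38, plus strand), a 12-base extension of the exon before it (chr11:102206075-102206086) and an exon of 114 bases (chr11:102186018-102186131) that encodes the second WW domain, a module that binds proline-rich partners. The 48-base exon lies in the leucine zipper region of the transactivation domain and is known to interrupt that zipper. The sequences below are the transcript letters across this junction for the 4 full-length combinations, taken from the GENCODE release 29 transcripts, with 20 bases of the shared exon on either side; capitals mark the 48-base exon, and they are shown because the deposited estimates differed between groups at this exon.

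YAP1-201: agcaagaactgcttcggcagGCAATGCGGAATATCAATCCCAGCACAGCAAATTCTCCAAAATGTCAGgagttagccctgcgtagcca

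YAP1-210: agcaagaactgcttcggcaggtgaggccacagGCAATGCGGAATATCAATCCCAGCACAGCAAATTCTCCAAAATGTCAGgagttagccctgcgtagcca

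YAP1-208: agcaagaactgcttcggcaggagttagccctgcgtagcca

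YAP1-209: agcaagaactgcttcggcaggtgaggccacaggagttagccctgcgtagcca

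YAP1-201 holds the 48-base exon alone, YAP1-210 holds it with the 12-base extension, YAP1-209 holds the extension alone and YAP1-208 holds neither. Of the 11 YAP1 transcripts in the deposited tables, 8 span this region, 4 with the 48-base exon and 4 without it.

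All 4 transcripts without the 48-base exon (YAP1-204, YAP1-208, YAP1-209 and YAP1-211) were listed at 0 in all 4 overexpression libraries, while their summed level was 10.3, 1.46, 9.22 and 8.56 TPM in control libraries. As a share of the TPM of the 8 spanning transcripts, forms without the exon were 0% in each overexpression library, against 49.8%, 7.59%, 50.3% and 45.4% in control libraries. Control replicate 2 stood far below the other 3 control libraries, yet above all overexpression libraries. In counts these forms had 0 in each overexpression library, of 1275 to 1501 spanning counts, against 856, 42, 609 and 474 in control libraries. By counting error alone, a count of 0 allows a share of up to 0.200% to 0.235% per overexpression library; this does not cover the error of dividing reads among transcripts, which the deposited values do not give. The pattern at this exon was picked out after its values were seen and is given as a description.

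Among the single transcripts, YAP1-209 (5350 bases) had 0 in each overexpression library, against 790, 0, 559 and 357 counts in control libraries. It was the largest of the forms without the exon in control replicates 1, 3 and 4, and control replicate 2, where it was at 0, had the highest YAP1-201 count of any library. YAP1-201 (5386 bases), the most abundant transcript over all libraries, had 653, 801, 1036 and 712 counts in overexpression libraries, against 603, 1156, 413 and 328 counts in control libraries. YAP1-210 had 499, 495, 309 and 409 counts in overexpression libraries, against 130, 238, 149 and 429 counts in control libraries. The groups overlapped for both. YAP1-208 (1490 bases) had 0 in each overexpression library, against 22, 24, 28 and 30 counts in control libraries, and YAP1-204 had 0 in each, against 21, 18, 10 and 34. YAP1-203 (1638 bases), which holds the 48-base exon, was also lower without overlap, with 2 counts in each overexpression library, against 27, 13, 3 and 18 counts in control libraries. The groups did not overlap for YAP1-203, YAP1-204 and YAP1-208, so the lower listed values included a form with the exon. YAP1-203 did not enter the test of all transcripts, and control replicate 3 had only 3 counts of it, against 2. The share of all transcripts whose groups are apart was not computed, so nothing is drawn from this. YAP1-202 had 347, 0, 112 and 152 counts in overexpression libraries, against 194, 99, 146 and 90 counts in control libraries.

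**Figure D2:**
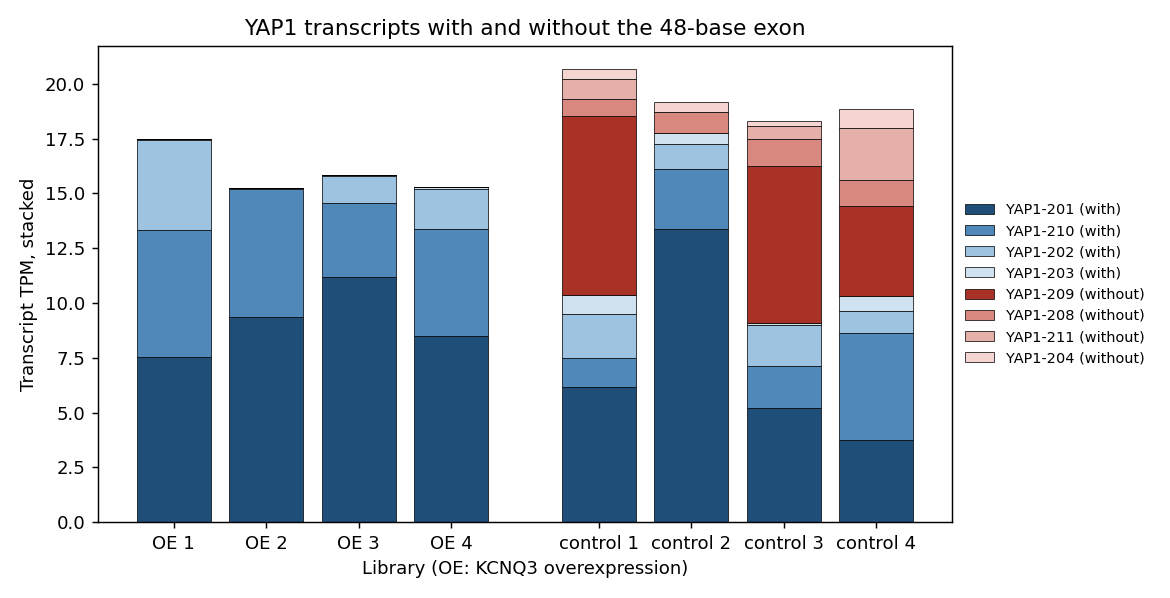
TPM of the 8 YAP1 transcripts that span the 48-base exon, stacked for each KCNQ3 overexpression library (OE, left) and each control library (right); blue transcripts hold the exon and red ones lack it. Red segments are at 0 in all 4 overexpression libraries and sum to 1.46 to 10.3 TPM in control libraries, with the least in control 2.

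No YAP1 transcript passed the test of all 47129 transcripts, in which 0.0127% were called (edgeR's quasi-likelihood test). The adjusted p was 0.119 for YAP1-208 and 0.461 for YAP1-204, and YAP1-209 and YAP1-211 did not enter the test because of their low counts in too many libraries. The test of transcript usage within genes (edgeR's diffSpliceDGE, Simes p per gene) gave YAP1 an adjusted p of 1.83e-05, where 36 of 9395 genes, 0.383%, were called. With limma's diffSplice on voom values, an alternative added with the data in view, the adjusted p for YAP1 was 0.631, although that method called 217 genes. The call for YAP1 thus depends on the tool, and nothing is drawn from it. On simulated data the diffSpliceDGE test also called genes whose transcripts had not been changed. False calls of both tools on those data are not compared here.

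At the other variable segments the groups overlapped. Of the TPM of the 8 spanning transcripts, forms without the 114-base exon took 23.4%, 0%, 7.80% and 12.1% in overexpression libraries, against 16.4%, 8.47%, 14.8% and 22.7% in control libraries. Forms with the 12-base extension took 56.5%, 38.1%, 28.9% and 44.0% of it in overexpression libraries, against 59.9%, 20.3%, 62.5% and 65.7% in control libraries. Transcripts listed at 0 in every overexpression library with counts in 3 or 4 control libraries numbered 886 of 125062 with a count (0.708%), and 645 (0.516%) showed the reverse. YAP1 was 1 of 4 genes with at least 3 transcripts of the first kind, and 4 genes had at least 3 of the second.

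AMOTL2 shows how far such estimates varied between libraries of one group. Its most abundant transcript took 97.0%, 2.65%, 52.5% and 97.7% of the gene's TPM in overexpression libraries, against 58.5%, 42.8%, 47.6% and 19.5% in control libraries. No usage difference was called for AMOTL2, WWTR1, TEAD1, TEAD2 or TEAD4, the other members with at least 2 tested transcripts. Over all 10 genes, 22 of 68 transcripts were tested, none passed, and 2 (YAP1-204 and YAP1-208) had an unadjusted p below 0.05 in edgeR's test. Of all 47129 transcripts tested, 2632 had one. These 2 belong to the pattern at the 48-base exon that was picked out after its values were seen.

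The TEAD proteins bind DNA and carry the coactivators to their target genes. TEAD1 (ENSG00000187079, chromosome 11, 12674591 to 12944483, plus strand) had 1720, 1406, 1534 and 1323 counts in overexpression libraries, against 2140, 1607, 1446 and 1541 counts in control libraries, with overlapping groups. Its log2 fold change was -0.10 (SE 0.06, adjusted p = 0.394 in edgeR's test).

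TEAD2 (ENSG00000074219, chromosome 19, 49340595 to 49362457, minus strand), a TEAD gene expressed in early embryos and neural progenitors, was the most abundant of the 10. Its level was 26.8, 26.7, 27.3 and 25.9 TPM in overexpression libraries, against 26.8, 26.0, 26.8 and 25.1 TPM in control libraries, with nearly the same range in both groups. The log2 fold change on counts was 0.06 (SE 0.04, adjusted p = 0.512 in edgeR's test). It shares 319 exon bases with CD37 on the opposite strand, which had 27 to 57 counts in overexpression libraries and 28 to 68 counts in control libraries. TEAD2 had 850 to 1061 counts per library; without strand, reads from the pair cannot be told apart.

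TEAD4 (ENSG00000197905, chromosome 12, 2959330 to 3040673, plus strand), known for its role in the trophectoderm, followed with 23.6, 19.7, 21.7 and 20.6 TPM in overexpression libraries, against 24.3, 20.9, 20.6 and 19.0 TPM in control libraries. TEAD3 (ENSG00000007866, chromosome 6, 35473597 to 35497076, minus strand), abundant in placenta, was the least expressed of the 4, with 6.18, 5.27, 6.32 and 6.05 TPM in overexpression libraries, against 7.39, 6.62, 7.06 and 5.90 TPM in control libraries. Both genes had overlapping groups. The log2 fold change was 0.05 (SE 0.06, adjusted p = 0.715) for TEAD4 and -0.13 (SE 0.07, adjusted p = 0.347) for TEAD3 in edgeR's test.

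Summed over the 4 genes, TEAD RNA was 65.5 ± 3.81 TPM in overexpression libraries and 66.2 ± 4.69 TPM in control libraries (SD, n = 4 each). TEAD2 took 40.8% of it in overexpression libraries and 39.6% in control libraries, and TEAD4 took 32.7% in overexpression libraries and 32.0% in control libraries. TEAD1 took 17.5% ± 2.15 in overexpression libraries and 18.2% ± 1.34 in control libraries. This share differed by -0.77 percentage points, with a two-sided exact permutation p of 0.571 (0.571 adjusted over the 2 shares). TEAD RNA thus exceeded the summed RNA of its coactivators, which was 26.6 ± 1.61 TPM in overexpression libraries and 31.2 ± 1.78 TPM in control libraries, in every library. The coactivator sum was lower without overlap, at 25.2 to 28.7 TPM in overexpression libraries and 29.3 to 33.1 TPM in control libraries. Of single genes, 4.01% were apart as lower in TPM. This sum includes the YAP1 gap described above, which lay in its shorter transcripts, and WWTR1 groups overlapped.

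**Figure D3:**
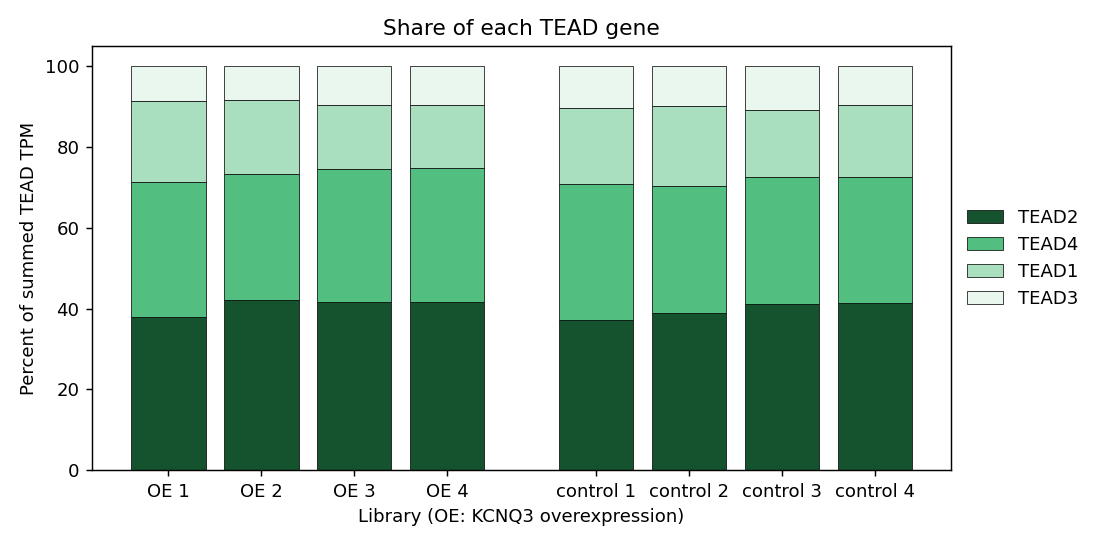
Percent of the summed TPM of TEAD1 to TEAD4 taken by each gene in every KCNQ3 overexpression library (OE, left) and control library (right). TEAD2 is the largest share in each of the 8 libraries and TEAD3 the smallest, and each gene's shares overlap between the groups.

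The target genes CCN1 and CCN2 encode secreted matricellular proteins, and CCN2 carries several TEAD-binding elements in its promoter, as does ANKRD1. The sequences below are the 250 bases before the RefSeq start of CCN2 (chr6:131951373-131951622, minus strand) and ANKRD1 (chr10:90921088-90921337, minus strand) in GRCh38.p14, read 5′ to 3′ on the gene's strand. They are shown because these are the standard YAP and TEAD target promoters; capitals mark GGAATG, the core that TEAD proteins bind, which was searched together with its complement CATTCC.

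CCN2: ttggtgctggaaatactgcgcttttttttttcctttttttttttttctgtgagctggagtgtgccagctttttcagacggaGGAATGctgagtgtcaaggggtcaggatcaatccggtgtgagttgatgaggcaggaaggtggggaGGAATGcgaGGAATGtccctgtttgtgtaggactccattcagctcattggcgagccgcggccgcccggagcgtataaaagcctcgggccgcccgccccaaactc

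ANKRD1: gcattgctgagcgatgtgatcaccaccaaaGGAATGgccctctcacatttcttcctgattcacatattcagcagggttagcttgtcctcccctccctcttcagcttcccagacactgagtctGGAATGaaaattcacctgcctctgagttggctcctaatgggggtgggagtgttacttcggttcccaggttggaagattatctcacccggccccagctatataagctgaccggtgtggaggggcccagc

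The CCN2 window holds 3 such words and the ANKRD1 window 2. Of 35116 RefSeq windows of the same length, 11.9% hold at least 1 on either strand, 0.940% at least 2 and 0.0826% at least 3. Promoter windows were matched for 7 of the 10 genes. The YAP1 window holds 1, 1 of the AMOTL2 windows holds 1 (as CATTCC), and those of WWTR1, TEAD2 and TEAD3 hold none of these letters. A match is a description of the sequence, not a bound site. CCN1, TEAD1 and TEAD4 were not matched.

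CCN1 (ENSG00000142871, listed as CYR61 in GENCODE release 29, chromosome 1, 85580761 to 85583962, plus strand) had 350, 270, 354 and 268 counts in overexpression libraries, against 395, 275, 315 and 319 counts in control libraries. In length-scaled units it was 9.87, 7.56, 9.30 and 7.61 TPM in overexpression libraries, against 9.93, 7.68, 9.61 and 8.83 TPM in control libraries. Both groups spanned nearly the same range. CCN1 changed by -0.01 on the log2 scale (SE 0.09, adjusted p = 0.963 in edgeR's test).

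CCN2 (ENSG00000118523, listed as CTGF, chromosome 6, 131948176 to 131951373, minus strand) was much lower. It had 51, 60, 66 and 42 counts in overexpression libraries, against 57, 50, 72 and 51 counts in control libraries. Control replicate 3 was the highest library and overexpression replicate 4 the lowest. CCN2 changed by -0.02 on the log2 scale (SE 0.18, adjusted p = 0.964 in edgeR's test), and it was 0.16 without control replicate 3. A partly overlapping antisense gene, AL133346.1, had at most 9 counts in any library.

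ANKRD1 (ENSG00000148677, chromosome 10, 90912096 to 90921276, minus strand) encodes an ankyrin repeat protein of nucleus and sarcomere, induced by stretch and by YAP. It had 49, 51, 46 and 31 counts in overexpression libraries, against 45, 31, 53 and 45 counts in control libraries, with overlapping groups. ANKRD1 changed by 0.07 on the log2 scale (SE 0.21, adjusted p = 0.891 in edgeR's test). At 31 to 72 counts per library, ANKRD1 and CCN2 had the widest standard errors of the 10 genes, so small changes in them were not detectable at this depth.

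AMOTL2 (ENSG00000114019, chromosome 3, 134355874 to 134375479, minus strand) encodes an angiomotin-family protein of cell junctions that binds YAP and restrains it, and is itself a YAP target. It had 511, 365, 411 and 352 counts in overexpression libraries, against 709, 473, 484 and 419 counts in control libraries. In scaled units it was 19.2, 15.1, 15.3 and 14.6 CPM in overexpression libraries, against 23.0, 17.9, 20.2 and 16.7 CPM in control libraries. Overexpression replicate 1 lay above control replicates 2 and 4, and the other 3 overexpression libraries lay below all controls. Its log2 fold change of -0.28 (SE 0.12) was the largest of the 10 in size, with an unadjusted p of 0.0385 and an adjusted p of 0.228 in edgeR's quasi-likelihood test. On log2(TPM + 0.1) the difference was -0.44 (SE 0.13), with an adjusted p of 0.296 in limma. Over 16 alternative settings the value ran between -0.44 and -0.19 and never passed. AMOTL2-207, a retained-intron form named after its values were seen, averaged 0.526 TPM in overexpression libraries and 3.08 TPM in control libraries, with overlapping groups. The coding form AMOTL2-201 averaged 3.74 TPM in overexpression and 3.48 TPM in control libraries. In the same order, AMOTL2-202 averaged 0.547 and 0.672 TPM and another coding form 0.981 and 0.725 TPM. The gene's lower mean TPM thus lay mainly in the retained-intron form. This split was not tested. AMOTL2 shares 187 exon bases on the same strand with the pseudogene RPL39P5, which had 264 to 370 counts in overexpression libraries and 247 to 352 counts in control libraries, so the division of reads between them is uncertain.

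**Figure D4:**
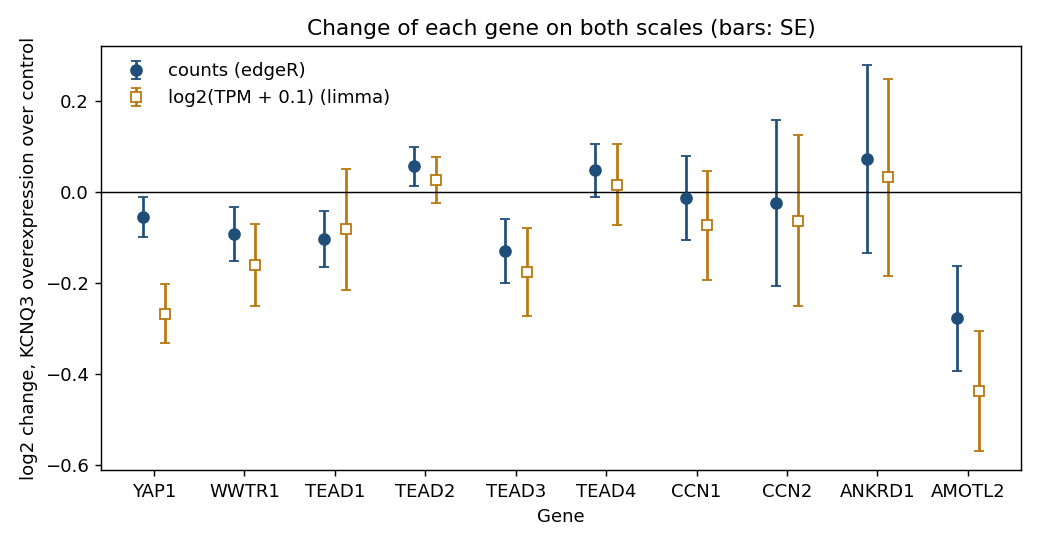
Log2 change of each gene in KCNQ3 overexpression over control, from counts (filled circles, edgeR) and from log2(TPM + 0.1) (open squares, limma), with SE as whiskers. The 2 scales lie closest for TEAD1, TEAD2 and TEAD4; YAP1 is at -0.05 on counts and -0.27 on TPM, and AMOTL2 is lowest on both.

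Summed over CCN1, CCN2 and ANKRD1, without AMOTL2, target RNA was 12.7, 10.8, 12.3 and 9.74 TPM in overexpression libraries, against 12.5, 9.96, 13.5 and 11.6 TPM in control libraries. Most of this was CCN1, with a mean of 8.58 TPM in overexpression libraries and 9.02 TPM in control libraries. With AMOTL2 added, the sum was 17.3 ± 2.18 TPM in overexpression libraries and 19.9 ± 2.30 TPM in control libraries (SD, n = 4 each). The groups overlapped for both sums.

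The genes whose profile lay nearest to that of 3 members were picked by the root mean square difference of centred log2 CPM over the 8 libraries. For YAP1, which varied with an SD of 0.05, these were MORC2 (0.015), RBM42 (0.019) and POLR3D (0.019). For CCN1, with an SD of 0.13, they were HEY2 (0.057), TLR5 (0.058) and RNF152 (0.058). For CCN2, with an SD of 0.25, they were H2BC18 (0.12), GEM (0.12) and MAP2K5-DT (0.13). With 8 libraries and 19280 genes tested, such likeness is a description of these libraries.

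A further 18 genes of a published YAP target signature, without the members above, was also read out. Of 17 tested, none passed in either direction; 10 had log2 fold changes below 0 and 7 above, with a median of -0.05 against 0.0090 over all genes. FJX1, a secreted regulator of planar polarity, was the 1 gene without overlap in CPM, where 5.84% of all genes were apart as higher, at 18.7, 19.8, 21.8 and 18.5 CPM in overexpression libraries, against 16.3, 17.4, 17.5 and 17.3 CPM in control libraries. Its log2 fold change was 0.20 (SE 0.06, adjusted p = 0.131 in edgeR's test). The most abundant tested genes were FOXF2, a forkhead transcription factor, at a log2 fold change of 0.06 (SE 0.06), and ASAP1, a regulator of Arf GTPases and the cytoskeleton, at -0.14 (SE 0.06, adjusted p = 0.269 in edgeR's test). ASAP1 groups overlapped in CPM and were apart as lower on the TPM scale, at 16.1 to 19.5 TPM in overexpression libraries and 19.98 to 21.4 TPM in control libraries.

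Of 54 genes of the Hippo cascade itself (kinases, scaffolds, polarity proteins and YAP or TEAD binding partners), 52 were tested and 1, RASSF1, passed, as a fall, where 0.192% of all genes passed as falls. RASSF1 is a scaffold that binds the MST kinases at the head of the cascade. It was 21.7, 20.8, 19.3 and 17.9 CPM in overexpression libraries, against 27.9, 25.0, 27.9 and 26.7 CPM in control libraries. All 4 overexpression libraries lay below all 4 controls, with a log2 fold change of -0.43 (SE 0.07, adjusted p = 0.0353 in edgeR's test). The value lay between -0.49 and -0.39 under 16 alternatives, but 9 of them gave adjusted p-values past 0.05, up to 0.217. Those 9 were both TPM scales, the fit with a replicate block (0.0508), and leaving out overexpression replicate 2, 3 or 4 or control replicate 1, 2 or 3 (0.0531 to 0.133).

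Of the 52 cascade genes, 40 had log2 fold changes below 0 and 12 above, with a median of -0.06 against 0.0090 over all genes, where 47.4% lay below 0. In CPM, the groups did not overlap for 8 lower genes and 3 higher genes, where 5.77% of all genes were apart as lower and 5.84% as higher. RASSF6, a relative of RASSF1, had 16, 14, 22 and 11 counts in overexpression libraries, against 30, 22, 22 and 28 counts in control libraries, with a log2 fold change of -0.63 (SE 0.20, adjusted p = 0.130). DCHS1, a giant cadherin that is the ligand of FAT4, had a log2 fold change of -0.24 (SE 0.08, adjusted p = 0.147). VGLL2, a TEAD-binding cofactor of muscle, had 28, 23, 26 and 26 counts in overexpression libraries, against 20, 17, 22 and 18 counts in control libraries, with a log2 fold change of 0.47 (SE 0.16, adjusted p = 0.196). LATS1, the kinase that phosphorylates YAP, was named after its values were seen and had a log2 fold change of -0.19 (SE 0.05, adjusted p = 0.0991). These adjusted p-values are from edgeR's test over all genes. On the TPM scale the groups of DCHS1 and VGLL2 overlapped. CSNK1E, a casein kinase, and YWHAZ, an adaptor that retains phosphorylated YAP in the cytoplasm, were the most abundant and differed by -0.08 (SE 0.05) and 0.03 (SE 0.04) on the log2 scale, with overlapping groups.

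CCN1 and CCN2 are also targets of serum response factor (SRF), which responds to the pool of free actin. Of 26 SRF and actin genes, 21 were tested and none passed; 14 had log2 fold changes below 0 and 7 above, with a median of -0.06, against 47.4% below 0 and a median of 0.0090 over all genes. Of these, 4 were apart in CPM as higher and 1 as lower, against 5.84% and 5.77% of all genes. ACTB, cytoplasmic beta-actin, was 1017, 1063, 1129 and 1113 CPM in overexpression libraries, against 932, 991, 845 and 929 CPM in control libraries, with a log2 fold change of 0.23 (SE 0.06, adjusted p = 0.0919 in edgeR's test). ACTG1, cytoplasmic gamma-actin, had 0.18 (SE 0.06, adjusted p = 0.138), and TPM2, a tropomyosin that coats actin filaments, had 0.40 (SE 0.10, adjusted p = 0.0807). The groups of ACTG1 overlapped on the TPM scale, where control replicate 2 was highest. FOSL1, an AP-1 subunit, was the gene apart as lower in CPM, at -0.49 (SE 0.12, adjusted p = 0.0807), and its groups also overlapped on the TPM scale. DESeq2, an alternative, called 738 genes over the whole table, 313 as higher and 425 as lower, of 34176 with a p-value. Of 19 SRF and actin genes with an adjusted p, it called ACTB, ACTG1 and TPM2 higher. Of 47 such cascade genes, it called LATS1 and RASSF1 lower.

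**Figure D5:**
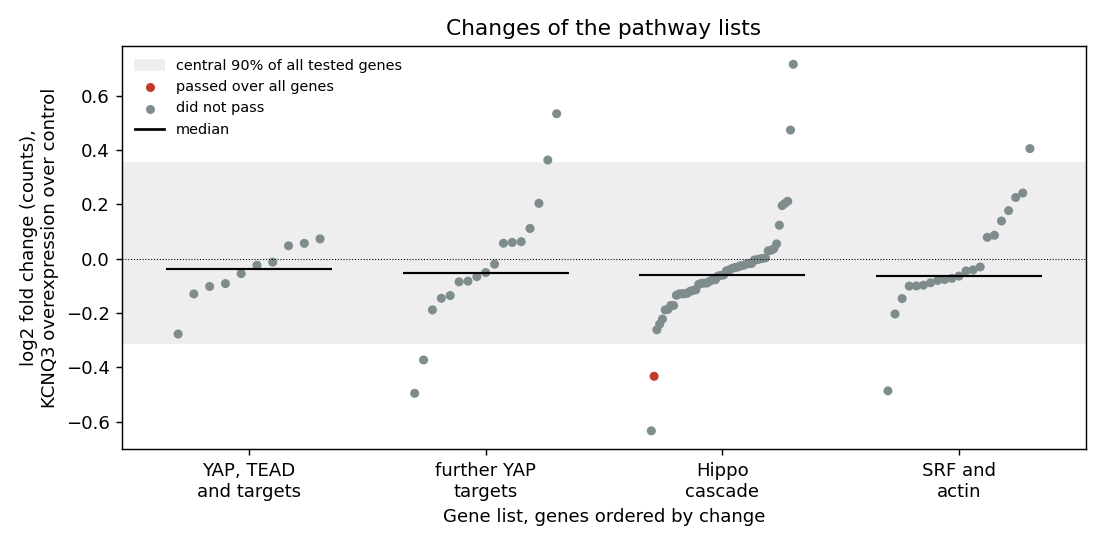
Log2 fold change (counts, KCNQ3 overexpression over control) of every tested gene of 4 lists, ordered by change within each; red marks a gene that passed over all genes, grey one that did not, black lines are list medians and the shaded band holds the central 90% of all tested genes (-0.31 to 0.35). RASSF1 at -0.43 is the 1 red point, and all 10 YAP, TEAD and target genes lie inside the band.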

How the data were processed

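Whole-transcriptome sequencing of 8 HEK293T libraries was analysed, 4 with KCNQ3 overexpression and 4 controls. StringTie 2.1.0, HISAT2 2.1.0, SAMtools 1.9, FastQC 0.11.5 and cutadapt 2.8 on build GRCh38.p13 are named, per the submitters' processing notes, without roles, strand or annotation. The deposited tables hold the authors' estimated counts per transcript, already whole numbers, and TPM per transcript (length-scaled, summing to 1000000 per library). Such counts follow estimated coverage, so an exact 0 for one transcript may be a failed estimate. Of 227751 transcripts, 205804 were joined to genes through GENCODE release 29 (GRCh38) and summed, and matched transcripts held 98.7% to 98.9% of counts. Totals of 24020097 to 30734915 set the precision; limits on a count of 0 cover counting error only.

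Genes and transcripts were tested with edgeR 4.0.16 (R 4.3.3; quasi-likelihood, robust, TMM, filterByExpr with minimum count 10 and total 15, Benjamini-Hochberg over all features, threshold 0.05), TPM with limma 3.58.1 on log2(TPM + 0.1) for genes with a mean of at least 0.5, usage with diffSpliceDGE, and shares with exact permutations. The count tests were tested on simulated data. Alternatives were RLE or no scaling, no filter, a mean of at least 50 counts, DESeq2 1.42.0, both TPM pseudocounts (0.1 and 1), a replicate block and leaving out each library. Within groups, each of the 12 pairs of libraries differed by more than the sampling noise of read counts (chi-square per degree of freedom 9.72 to 18.6), so none was a copy of another. Because the counts are estimates, this does not tell separate cultures from repeat libraries of one culture.

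The members and gene lists were chosen with earlier results of these data known. Named were all members, KCNQ3, and per list each gene past the threshold, the 4 largest changes among genes without overlap and the 2 most abundant; for YAP1, CCN1 and CCN2 the 3 nearest profiles (mean of at least 1 CPM, prior count 2); and YAP1 transcripts with a mean of at least 0.1 TPM. Genes named otherwise are said to be so. Promoter sequences are from RefSeq (GRCh38.p14). The level of 1 blood marker, and the sum that includes it, is not reported here.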

Additional observations from a re-analysis of the deposited data

Results flagged for a closer look

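Among 80 groups of 4 libraries examined, 10 held 1 library far from the other 3, and chance alone flags about 1 in 20 groups. No explanation was tested for any of them. CCN2 was 2.09 TPM in control replicate 3, against 1.33 to 1.34 TPM in the other controls. Of the TPM of the 8 spanning YAP1 transcripts, forms without the 48-base exon took 7.59% in control replicate 2, against 45.4% to 50.3% in the other controls. Forms without the 12-base extension took 79.7% there, against 34.3% to 40.1%. YAP1-207, a short transcript, was 0.396 TPM in overexpression replicate 2, against 0.044 to 0.071 TPM in the other overexpression libraries. The TEAD2 share of TEAD RNA was 37.9% in overexpression replicate 1, against 41.5% to 42.2% in the others. The TEAD4 share was 31.1% in overexpression replicate 2, against 33.0% to 33.3% in the others, and 33.6% in control replicate 1, against 31.3% to 31.5% in the other controls. Outside the members, VGLL2 was 0.672 TPM in control replicate 3, against 0.465 to 0.493 TPM in the other controls, FOXF2 was 32.9 TPM in overexpression replicate 1, against 27.1 to 27.3 TPM in the others, and FOSL1 was 3.07 TPM in overexpression replicate 1, against 1.89 to 2.08 TPM in the others.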

How the results depend on the processing

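No member passed under any of the 16 alternatives; DESeq2 gave no adjusted p for CCN2 and ANKRD1, and ANKRD1 did not enter the fit on genes with a mean of at least 50 counts. YAP1, WWTR1, TEAD1, TEAD3 and AMOTL2 stayed below 0 and TEAD2 and TEAD4 above 0 in every alternative. Leaving out 1 library, the value ran between -0.087 and 0.024 for CCN1, -0.10 and 0.16 for CCN2, -0.064 and 0.24 for ANKRD1, and -0.52 and 0.65 for YAP1-202. Over all genes, 58 calls became 35 with no scaling factor, 738 with DESeq2, 7 with log2(TPM + 0.1) and 7 with log2(TPM + 1), and between 8 (without overexpression replicate 2) and 378 (without overexpression replicate 1) with 1 library left out. For the Hippo cascade, the 1 call became 2 with DESeq2, 0 with log2(TPM + 0.1), 0 with log2(TPM + 1), and between 0 and 4 with 1 library left out; the 4 (AJUBA, LATS1, RASSF1 and VGLL4) came without overexpression replicate 1. SRF and actin calls became 3 with DESeq2. Transcript calls ran between 0 and 9 with 1 library left out, against 6. The YAP1 usage test kept its call in 11 alternatives (adjusted p up to 0.0270 in planned ones) and lost it with limma's diffSplice on voom values (0.631). The YAP1 share of YAP1 and WWTR1 was 0.57 percentage points higher on counts, and between -2.52 and -0.87 with 1 library left out; without control replicate 2 its exact permutation p was 0.0286, the smallest that setting allows, and 0.0571 adjusted over the 2 shares. The cause of these changes was not tested. Same-numbered libraries of the groups correlated at -0.046 to 0.014, and differently numbered ones at -0.075 to 0.080. So few pairs cannot settle whether the numbers pair the samples. With the number as a replicate block, gene calls were 86, and 30 of them were among the 58 without the block. Hippo cascade calls were 0 and transcript calls 0. YAP1-202 turned to -0.60 (0.23 without the block), and YAP1 usage had an adjusted p of 0.0178 in edgeR's diffSpliceDGE. No call changed for the members, the further YAP targets or the SRF and actin genes. The SE of AMOTL2 was 0.057 with the block and 0.116 without it, with an adjusted p of 0.0712 in edgeR's test with the block. The SE of TEAD1 was 0.036 with the block and 0.061 without it. Depth limits CCN2 and ANKRD1, and the division of reads among transcripts limits every transcript value.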
